A study of Mus musculus with 6 samples.

Results

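The hypoxia response genes described here are Bnip3, Bnip3l, Ddit4, Higd1a, Vegfa, Ndrg1, Egln1, Egln3, Ankrd37 and Hif1a, 10 of 19938 genes measured in mouse embryonic stem cells. They were chosen by name as genes of the response to low oxygen, with earlier results of the same contrast in view. Calls for single genes are therefore given as a description and are no independent evidence. Whether the 10 genes differ between the groups as a set was not tested. All 10 were measured, through 13 of the 35556 probe sets on the array. The cells carried Dicer alleles named Fx/Fx (Dicer conditional), and every array came from such cells. The untreated group (3 arrays) had no deletion. The tamoxifen group (3 arrays) was given tamoxifen for 3 days to delete Dicer, the enzyme that makes mature microRNAs, and was collected 2 days later, on day 5. The labels give no collection day for untreated cells, no oxygen level, no cell density and nothing on whether the numbered samples were grown separately. The p-values therefore reflect the spread of these samples alone, and that spread could be technical. Wild-type E14 cells given tamoxifen are mentioned in the protocol and were not analysed here, so tamoxifen, Dicer loss and any difference in days of culture cannot be told apart.

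Cells sense oxygen through hypoxia-inducible factors (HIF), pairs of an oxygen-labile alpha subunit, such as the product of Hif1a, and a stable beta subunit. With oxygen present, prolyl hydroxylases such as those encoded by Egln1 and Egln3 mark the alpha subunit for destruction, so control of Hif1a acts largely on its protein and not on its mRNA. When oxygen is short, HIF accumulates, binds short ACGTG or GCGTG elements and raises genes of mitophagy, glycolysis and vessel growth, and also Egln3 and Egln1 themselves. Several of these genes, Ddit4 and Ndrg1 among them, answer other stresses too.

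The deletion was visible in the targeted gene. Dicer1 (probe set 10402444) had log2 values of 11.43, 11.36 and 11.48 in untreated arrays 1, 2 and 3 and of 9.53, 9.48 and 9.69 in tamoxifen arrays 1, 2 and 3. A list of 12 markers of embryonic stem cells, with Pou5f1, Sox2 and Nanog among them, averaged 12.25 to 12.35 in untreated and 12.14 to 12.20 in tamoxifen arrays, with 0 of 12 called by limma and 5 at an unadjusted p under 0.05, all lower. With the replicate number as a block, 4 of the 12 were called lower, against 9.54% of all genes. Over all 19938 genes, 2602 were lower and 2283 higher at an unadjusted p under 0.05. Averages of 10 fibroblast markers, 7 endoderm markers and 6 mesoderm markers lay between 6.70 and 7.31 in every array, near the array medians of 7.19 to 7.26. The 6 neuroectoderm markers averaged 7.83 to 8.02 in untreated and 8.07 to 8.39 in tamoxifen arrays, with Neurod1 called higher without the block. With the block 3 of the 6 were called higher (7.87% of all genes), as were 4 at an unadjusted p under 0.05, and 0 were lower in either. In such bulk samples fewer cells of a type and less RNA per cell cannot be told apart, and the part of these marker differences in the values below was not tested.

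The sequence before the transcription start of 5 of the genes is shown because these are, among the genes with an entry, those with the largest falls or with groups that did not overlap. Each is the 250 bases upstream of a RefSeq start (build GRCm38.p6), written 5′ to 3′ on the gene's strand. Capitals mark the HIF core motifs ACGTG and GCGTG on the strand shown and their reverse complements CACGT and CACGC, which can overlap each other, as in CACGTG. Bnip3 lies at chr7:138909507-138909756, Ankrd37 at chr8:45999851-46000100, Ddit4 at chr10:59951771-59952020, Higd1a at chr9:121857797-121858046 and Vegfa at chr17:46032378-46032627, all on the minus strand.
Bnip3: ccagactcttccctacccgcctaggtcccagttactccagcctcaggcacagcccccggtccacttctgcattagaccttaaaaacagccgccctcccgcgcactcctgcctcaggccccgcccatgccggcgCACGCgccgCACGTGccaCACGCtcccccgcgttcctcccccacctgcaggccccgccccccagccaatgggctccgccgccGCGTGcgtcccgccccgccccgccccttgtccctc
Ankrd37: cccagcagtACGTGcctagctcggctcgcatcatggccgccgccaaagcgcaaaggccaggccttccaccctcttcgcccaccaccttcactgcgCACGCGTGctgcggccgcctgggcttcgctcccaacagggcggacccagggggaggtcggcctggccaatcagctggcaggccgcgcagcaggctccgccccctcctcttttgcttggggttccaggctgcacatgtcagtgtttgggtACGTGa
Ddit4: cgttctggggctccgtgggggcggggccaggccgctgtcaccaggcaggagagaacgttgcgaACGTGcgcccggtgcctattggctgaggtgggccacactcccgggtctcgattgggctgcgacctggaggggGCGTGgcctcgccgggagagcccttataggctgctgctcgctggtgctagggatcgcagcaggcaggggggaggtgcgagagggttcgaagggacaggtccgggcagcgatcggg
Higd1a: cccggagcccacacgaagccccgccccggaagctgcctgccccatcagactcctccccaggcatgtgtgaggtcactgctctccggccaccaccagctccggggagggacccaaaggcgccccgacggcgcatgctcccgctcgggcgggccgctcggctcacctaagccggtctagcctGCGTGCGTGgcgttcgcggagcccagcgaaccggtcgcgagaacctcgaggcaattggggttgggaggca
Vegfa: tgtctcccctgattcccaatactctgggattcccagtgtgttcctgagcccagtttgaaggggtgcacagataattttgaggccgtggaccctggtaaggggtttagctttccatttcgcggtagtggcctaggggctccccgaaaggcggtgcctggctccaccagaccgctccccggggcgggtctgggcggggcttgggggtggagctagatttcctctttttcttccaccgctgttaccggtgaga

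Bnip3 had 5 matches, the nearest beginning 35 bases before the start, and Ankrd37 had 4, with 1 only 6 bases before it. Ddit4 and Higd1a had 2 each, and the Vegfa window had 0. Among the other genes with an entry, Egln1 had 2 matches, Egln3 had 1 and Hif1a had 3. A second Vegfa start, inside the gene, had 2. The Ankrd37 and Hif1a windows also lay inside the RefSeq spans of their genes, so their matches are not upstream of the whole gene. Bnip3l and Ndrg1 had no entry in the table. Of all 32851 windows of this length, 38.6% held at least 1 match, 16.7% at least 2 and 1.01% at least 5. A match is a string of letters and was not measured as a binding site.

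Values below are log2 intensities after the robust multi-array average (RMA), a normalisation that gives all arrays nearly the same distribution. Of several probe sets the brightest stands for the gene, and levels of different genes are set side by side only to say where a signal is dim, since probe affinity also moves them. The question set by the design is which transcripts differ after Dicer deletion. Ddit4, Higd1a and Vegfa were lower after tamoxifen beyond the threshold of limma's fit to all genes (Benjamini-Hochberg adjusted p under 0.05), 0 of the 10 genes were higher and the other 7 did not pass. Higd1a passed through its brighter probe set only, which may not read Higd1a itself, as described below. The dimmer one, at -0.19, was not called. Before adjustment, 6 were lower and 0 higher at p under 0.05, against 2602 lower and 2283 higher of all 19938 genes. Over all genes 3.99% were called lower and 3.79% higher; since the genes were chosen with this contrast known, nothing is read from the count. Their log2 changes ran from -0.92 for Ddit4 to 0.04 for Hif1a with a median of -0.45, against 0.01 over all genes, and 9 of 10 were negative against 46.8% of all genes. With the replicate number as a block 7 were called lower (9.54% of all genes) and 0 higher (7.87% of all genes): Bnip3, Ndrg1, Egln1 and Ankrd37 joined the first 3.

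**Figure D1:**
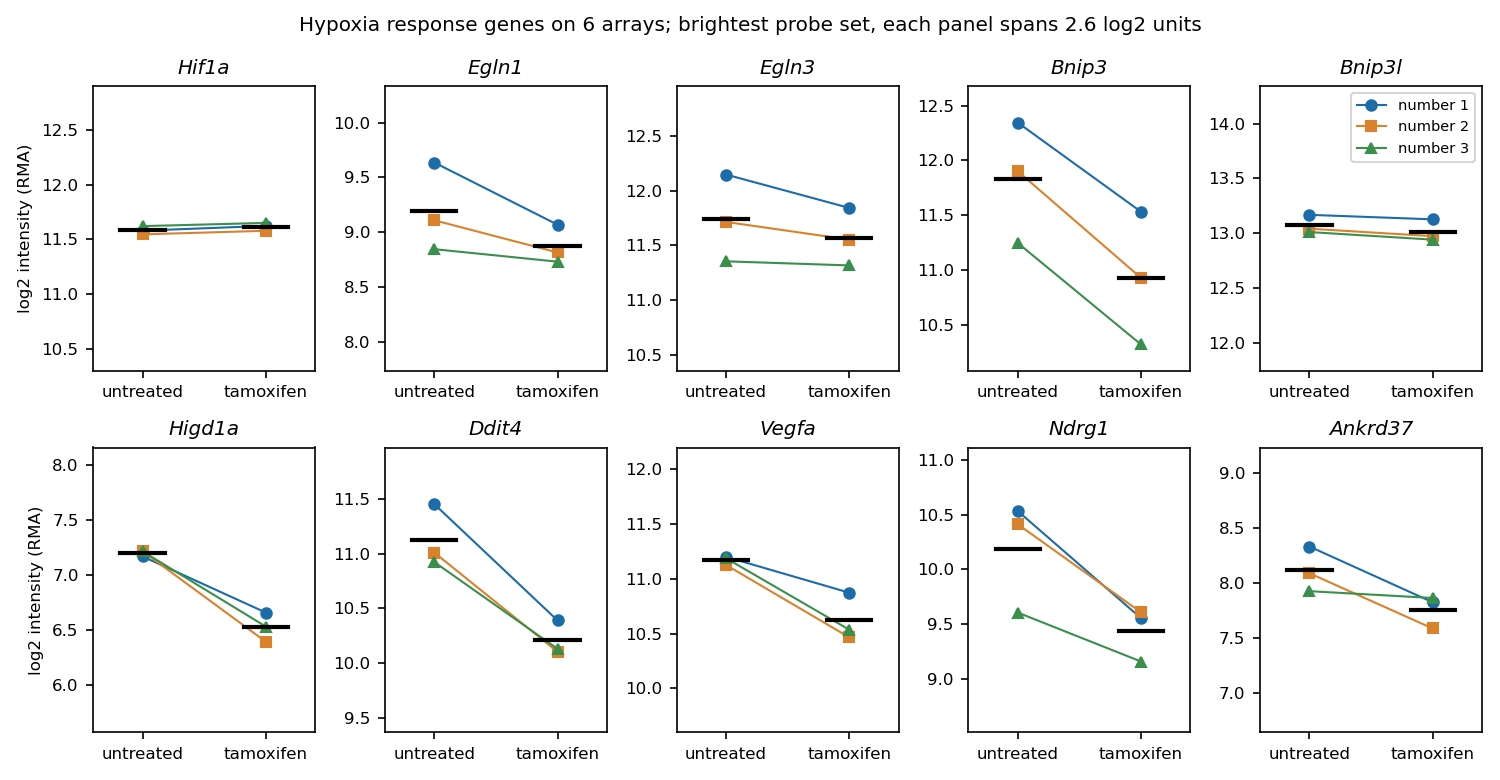
Log2 RMA intensity of each gene's brightest probe set in untreated and tamoxifen cells, 1 line for each pair of arrays with the same replicate number and a black bar for each group mean (n = 3); each panel has its own level and the same span. All 3 lines slope down for 9 of the 10 genes, though by 0.07 or less for Bnip3l, and the lines of Hif1a are nearly flat with a highest value of 11.65.

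The sensing side of the pathway showed small differences. Hif1a, the alpha subunit, had values of 11.58, 11.55 and 11.62 in untreated arrays 1, 2 and 3 and of 11.62, 11.58 and 11.65 in tamoxifen arrays 1, 2 and 3. The groups overlapped, and the 95% confidence interval of the log2 change was -0.10 to 0.17, or 93.4% to 112% of the untreated level. That interval reflects the spread of these samples alone, which could be technical. Egln1, the main hydroxylase of HIF in most cells, had values of 9.64, 9.11 and 8.84 in untreated and of 9.07, 8.81 and 8.73 in tamoxifen arrays. Its change was -0.33 ± 0.18 (SE), and untreated array 1 stood above the rest: without that array the change was -0.11, and without untreated array 3 it was -0.50. Egln3, a hydroxylase that HIF itself induces, had values of 12.15, 11.71 and 11.35 in untreated and of 11.84, 11.55 and 11.32 in tamoxifen arrays. Its groups overlapped almost entirely, with a change of -0.17 ± 0.19 (SE) that was 0.04 without untreated array 1 and -0.36 without untreated array 3. The same-numbered differences of Egln3 were -0.30, -0.16 and -0.04 for numbers 1, 2 and 3.

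The mitochondrial genes differed from each other. Bnip3 encodes an outer-membrane receptor that directs mitochondria to autophagy, and is a well-known HIF target. Its values were 12.35, 11.90 and 11.25 in untreated arrays 1, 2 and 3 and 11.53, 10.93 and 10.32 in tamoxifen arrays 1, 2 and 3. The groups overlapped, because untreated array 3 was below tamoxifen array 1, yet each same-numbered pair was lower after tamoxifen, with differences of -0.81, -0.97 and -0.93. The change of -0.90 ± 0.32 (SE) was the second most negative of the 10 and was not called without the block. With the block the estimate was the same and its standard error was 0.06. Without tamoxifen array 1 it was -1.21 and called, and without tamoxifen array 3 it was -0.60.

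The second Bnip3 probe set (10568785) gave 11.72, 11.22 and 10.47 in untreated and 10.83, 10.24 and 9.73 in tamoxifen arrays, with pair differences of -0.89, -0.98 and -0.74. Both probe sets placed the arrays in the same order. Bnip3l, also called Nix, encodes a related mitophagy receptor. Its brightest probe set had values of 13.17, 13.04 and 13.01 in untreated and of 13.13, 12.97 and 12.94 in tamoxifen arrays, a change of -0.06 with a 95% confidence interval of -0.23 to 0.11. Its dimmer probe set changed by -0.09. RefSeq lists a Bnip3l pseudogene on chromosome 12, and positions of probe sets were not given. For the 7 genes with 1 probe set, numbers rise with chromosome names sorted as text. They run from 10369290 (Ddit4, 10) through 10400304 (Egln3, 12), 10429140 (Ndrg1, 15) and 10451198 (Vegfa, 17) to 10578515 (Ankrd37, 8). In that order the dimmer probe sets, 10421003 of Bnip3l (14) and 10568785 of Bnip3 (7), have their gene's place. The brightest, 10394800 of Bnip3l and 10414269 of Bnip3, lie outside it. They may therefore read copies elsewhere, which was not tested.

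Higd1a encodes a small protein of the inner mitochondrial membrane that is induced by hypoxia. Values of its brighter probe set (10492860) were 7.17, 7.22 and 7.22 in untreated and 6.66, 6.39 and 6.53 in tamoxifen arrays, a change of -0.67 ± 0.08 (SE) that passed the threshold in 6 of 6 fits without 1 array. The groups did not overlap. The other probe set (10597871) had 6.16, 5.99 and 6.09 in untreated and 5.90, 5.90 and 5.86 in tamoxifen arrays. Its groups did not overlap either, but its change was -0.19 ± 0.07 (SE) and was not called. The signals were dim, above those of 37.1% and 23.4% of genes, and RMA compresses changes of dim probe sets. The platform table gives both probe sets the symbol Higd1a, so the size of the fall, and the call, depend on which is taken. In the number order described above, the uncalled 10597871 follows Egln1 on chromosome 8 (10582712), the place of Higd1a on chromosome 9. The called 10492860 falls between Vegfa on chromosome 17 (10451198) and Ankrd37 on chromosome 8 (10578515), outside that place. It may therefore read a copy elsewhere, and the call cannot be credited to Higd1a itself. Positions were not given, so this was not tested.

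Ddit4, also called Redd1, restrains the growth kinase complex mTORC1 and answers hypoxia, energy stress and DNA damage. Its values were 11.45, 11.01 and 10.92 in untreated arrays and 10.39, 10.10 and 10.13 in tamoxifen arrays. The highest tamoxifen array was below the lowest untreated array. The change was -0.92 ± 0.14 (SE), so 52.9% of the untreated signal was left (95% confidence interval 42.5% to 65.7%). It was the largest fall of the 10, rank 12 among all genes, and was called in 6 of 6 fits that left out 1 array.

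Vegfa, the growth factor that draws new vessels to oxygen-poor tissue, had values of 11.20, 11.13 and 11.19 in untreated and of 10.87, 10.47 and 10.54 in tamoxifen arrays. The untreated arrays were close together, and all tamoxifen arrays were lower. The change of -0.55 ± 0.10 (SE) left 68.5% of the untreated level. The call held in 2 of 6 fits without 1 array and was lost without untreated array 2 or 3 or tamoxifen array 2 or 3, where the change was -0.57, -0.54, -0.47 and -0.50.

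Ndrg1 encodes a cytoplasmic stress-response protein induced by hypoxia and by iron loss. Its values were 10.53, 10.41 and 9.61 in untreated and 9.56, 9.61 and 9.16 in tamoxifen arrays. Untreated array 3 was well below the other untreated arrays and level with tamoxifen array 2. The change was -0.74 ± 0.23 (SE), not called, and -1.03 and called without untreated array 3. Ankrd37, a small ankyrin-repeat gene known as a direct HIF target, had values of 8.33, 8.09 and 7.93 in untreated and of 7.82, 7.59 and 7.86 in tamoxifen arrays. Its groups did not overlap, by a narrow margin between untreated array 3 and tamoxifen array 3, and the change was -0.36 ± 0.11 (SE). Ankrd37, Ddit4, Higd1a and Vegfa were the 4 of 10 genes with all tamoxifen arrays below all untreated arrays, against 14.8% of all genes.

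**Figure D2:**
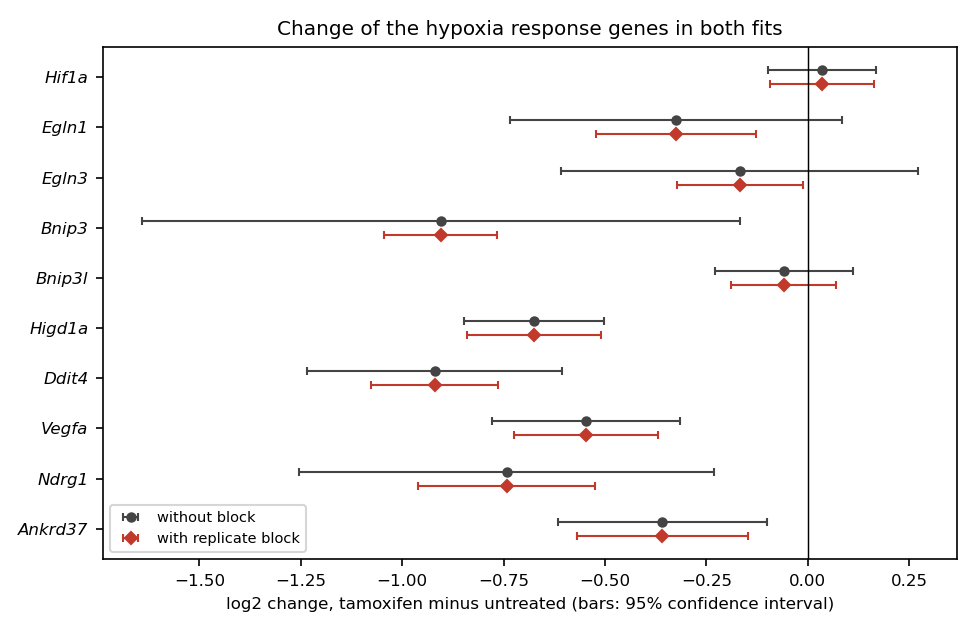
Log2 change (tamoxifen minus untreated) of each gene with its 95% confidence interval from limma, without a block (circles) and with the replicate number as a block (diamonds). The estimates are identical, and the interval of Bnip3 narrows from -1.64 to -0.17 without the block to -1.04 to -0.77 with it.

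Several of the 10 genes also varied widely within the groups. The pooled within-group SD of Bnip3, 0.58, ranked 8 from the top of 19938 genes, and those of Ndrg1, Egln3 and Egln1 ranked 69, 145 and 206. Hif1a, with an SD of 0.04, ranked 18830. Arrays numbered 1 were the highest and arrays numbered 3 the lowest of both groups for Bnip3, Bnip3l, Egln1 and Egln3, 4 of 10 genes, against 7.25% of all genes. Averaged over the 10 genes, the deviation from the group mean was 0.23, -0.01 and -0.23 for untreated arrays 1, 2 and 3 and 0.19, -0.06 and -0.14 for tamoxifen arrays 1, 2 and 3.

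**Figure D3:**
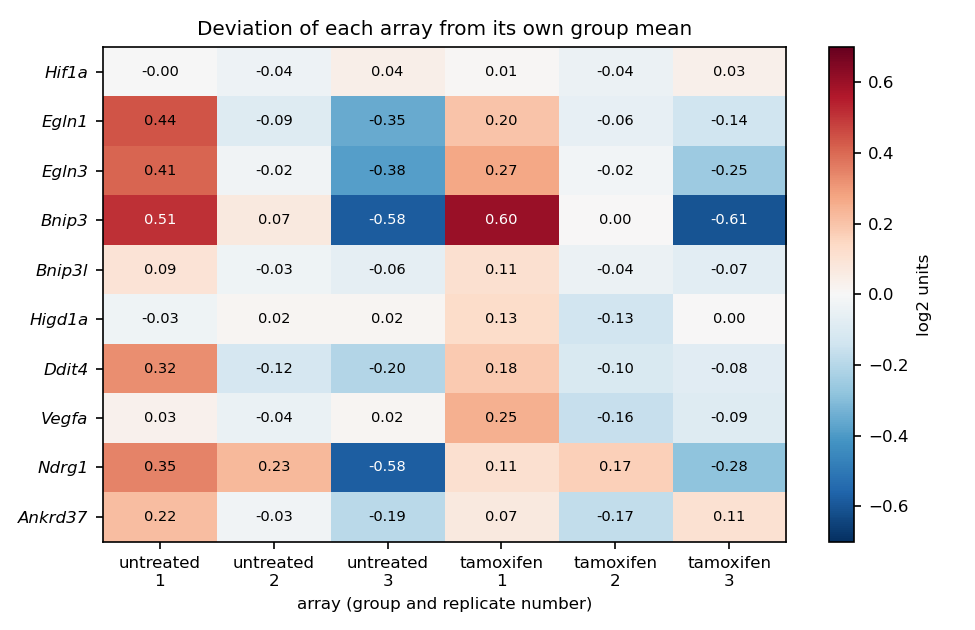
Deviation of each array from the mean of its own group, in log2 units, for the 10 genes (rows) on the 6 arrays (columns). Both arrays numbered 1 are high and both numbered 3 are low for Bnip3, Egln1 and Egln3, whereas Hif1a stays within 0.04 of its mean.

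Because group and number are balanced, the effect of the replicate number does not use the tamoxifen contrast. It was tested over all genes with limma's F test in the blocked fit, a test added after these values were seen. Bnip3 ranked 2 of 19938 genes (adjusted p = 0.00798) and Egln3 ranked 102 (adjusted p = 0.0269), so 2 of 10 genes were called, against 1.2% of all genes. Ndrg1 had an adjusted p of 0.0515, Egln1 of 0.0807 and Ddit4 of 0.0886 in the same limma test, and the other 5 genes had 0.349 or more. In size, the mean deviation from the group mean was 0.56 for the Bnip3 arrays numbered 1 and -0.60 for those numbered 3, against a tamoxifen difference of -0.90. The labels do not say what the numbers stand for, and what differed between them was not tested.

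A minority of the known HIF targets outside the 10 genes also passed the replicate-number test, which called 1.2% of all genes. Of 24 measured targets in glucose use, 5 were called (20.8%): Aldoc, Pfkl, Pgm1, Ppp1r3c and Slc16a3. Of 48 other targets 4 were called (8.33%), P4ha1, Fam162a, Ndufa4l2 and Tmem45a, and of 13 measured paralogues of the 10 genes 2 were (15.4%), Ndrg2 and Hif3a. These 11 genes are named because they passed that test and were picked after their values were seen. Hif3a also counts among the 24 HIF subunits and regulators, where it was the 1 gene called (4.17%). Of 23 genes of mitophagy and autophagy, 15 of mTORC1 control and 5 VEGF receptors, 0 were called. P4ha1, which hydroxylates collagen, had 10.95, 10.25 and 9.86 in untreated and 10.39, 9.99 and 9.72 in tamoxifen arrays (adjusted p = 0.0225 for the number by limma). Slc16a3, a lactate exporter, had 11.08, 10.64 and 10.10 in untreated and 10.38, 10.12 and 9.73 in tamoxifen arrays (adjusted p = 0.0183 for the number by limma). In both groups arrays numbered 1 were highest and arrays numbered 3 lowest, as in Bnip3, for each of these 11 genes except Tmem45a. Tmem45a had 7.61, 7.79 and 7.37 in untreated and 7.13, 7.30 and 6.66 in tamoxifen arrays, with arrays numbered 2 the highest.

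Between untreated and tamoxifen cells, 6 of 149 measured pathway genes outside the 10 were called lower and 7 higher, 4.03% and 4.70%, close to the shares over all genes. Of the 149 changes 100 were negative (67.1%, against 46.8% of all genes). At an unadjusted p under 0.05, 40 were lower and 17 higher, against 2602 and 2283 of all 19938 genes. With the replicate block 35 were lower and 17 higher, 23.5% and 11.4%, against 9.54% and 7.87% of all genes. Targets in glucose use had a median change of -0.19, with 2 of 24 called lower and 0 higher, and 11 lower (45.8%) and 0 higher with the block. Of these 24 changes 21 were negative, and 10 were lower and 0 higher at an unadjusted p under 0.05. Eno2, a neuronal-type enolase, fell by 0.54 ± 0.11 (SE) on the log2 scale (limma adjusted p = 0.0222), and hexokinase Hk2 fell by 0.41 ± 0.10 (limma adjusted p = 0.0397). Each was called in 2 of 6 fits without 1 array. Of the 48 other targets 1 was called lower and 2 higher, with a median change of -0.09. Their changes were negative for 33 (68.8%, against 46.8% of all genes) and positive for 15. With the block 9 were called lower (18.8%) and 6 higher (12.5%). Bhlhe41, a transcriptional repressor of the clock, fell by 0.59 ± 0.12 (limma adjusted p = 0.0246, past the threshold in 3 of the 6 leave-one-out fits). Car12, a membrane carbonic anhydrase, rose by 0.71 ± 0.12 (limma adjusted p = 0.0133, 4 of 6), and the vessel ligand Angpt2 rose by 0.32 ± 0.07 (limma adjusted p = 0.0389), though in 0 of 6 fits without 1 array. The mean signal of Angpt2 was 6.22, below that of the brighter Higd1a probe set (6.86).

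**Figure D4:**
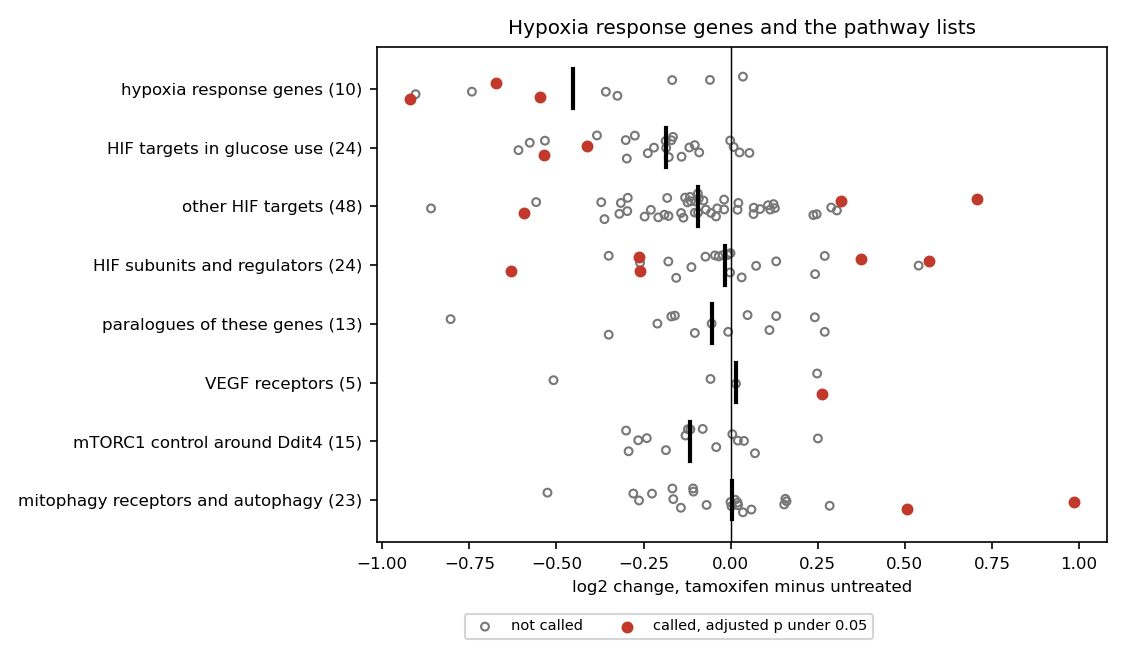
Log2 change (tamoxifen minus untreated) of every measured gene in the 10 hypoxia response genes and 7 pathway lists, with the number of genes in brackets; filled points passed an adjusted p under 0.05, vertical bars are medians, and vertical scatter has no meaning. The hypoxia response genes have a median of -0.45 and the glucose-use targets of -0.19.

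Among 24 measured HIF subunits and regulators 3 were called lower (12.5%) and 2 higher (8.33%), with a median change of -0.02. Of the 24 changes 16 were negative (66.7%, against 46.8% of all genes) and 8 positive. With the block 4 were called lower (16.7%) and 5 higher (20.8%), against 9.54% and 7.87% of all genes. Hif1an, the asparagine hydroxylase that blocks the activation domain of HIF, rose by 0.37 ± 0.06 on the log2 scale (limma adjusted p = 0.0133, past the threshold in 3 of the 6 leave-one-out fits). Os9, a lectin of the endoplasmic reticulum also reported to bind HIF and its hydroxylases, rose by 0.57 ± 0.08 (limma adjusted p = 0.00677). Arntl, a clock factor of the same protein family as the HIF beta subunit, fell by 0.63 ± 0.09 (limma adjusted p = 0.00678). Os9 and Arntl were called in 6 of 6 fits without 1 array. Rbx1, a subunit of the ligase that destroys HIF alpha, fell by 0.26 ± 0.07 (limma adjusted p = 0.0476, called in 1 of 6).

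The paralogues of the 10 genes had 0 of 13 called without the block by limma. At an unadjusted p under 0.05, 2 were lower and 1 higher, against 2602 and 2283 of all 19938 genes. With the block 3 were lower (23.1%) and 1 higher (7.69%), against 9.54% and 7.87% of all genes. Epas1, the other widely expressed HIF alpha gene, had a change of 0.27 ± 0.07 (SE, limma adjusted p = 0.0514, or 0.0174 with the block), while the third alpha gene, Hif3a, had -0.35 ± 0.16 (limma adjusted p = 0.232, or 0.0072 with the block). Ndrg2 had 11.69, 11.05 and 10.83 in untreated and 10.89, 10.21 and 10.05 in tamoxifen arrays. Its change of -0.80 ± 0.25 was close in size to that of Ndrg1 (limma adjusted p = 0.0912, or 0.000252 with the block). Ndrg3 and Ndrg4 changed by -0.17 ± 0.09 and -0.01 ± 0.07. Higd2a, a factor of respiratory complex assembly, changed by -0.21 ± 0.08 (limma adjusted p = 0.0401 with the block), and Higd1b by 0.05 ± 0.08. Vegfb, Vegfc, Vegfd and Pgf, the other ligands of the VEGF family, had changes of -0.05, 0.24, -0.10 and -0.16, and Egln2 and Ddit4l of 0.13 and 0.11, with limma adjusted p-values of 0.328 to 0.724.

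Around the effectors, genes of mitophagy and autophagy had a median change of 0.00, with 2 of 23 called higher and 0 lower without the block, and 3 higher and 4 lower with it. The 4, named after their values were seen, were Gabarapl1 at -0.53, Map1lc3a at -0.28, Wipi2 at -0.26 and Atg12 at -0.23. Pink1, the kinase that marks damaged mitochondria, rose by 0.51 ± 0.07 on the log2 scale (limma adjusted p = 0.00661), with 9.26, 9.25 and 9.20 in untreated and 9.77, 9.63 and 9.83 in tamoxifen arrays. Calcoco2, an autophagy adaptor, rose by 0.98 ± 0.14 (limma adjusted p = 0.00754). Whichever array was left out, both passed (6 of 6 fits). Of 5 VEGF receptors 1 was called without the block, Kdr, with 0.26 ± 0.07 (limma adjusted p = 0.0468, past the threshold in 0 of the 6 leave-one-out fits). With the block 2 of the 5 were called higher (40%) and 1 lower (20%), against 7.87% and 9.54% of all genes. Beside Kdr these were Nrp1, at 0.25 (limma adjusted p = 0.0246 with the block, 0.0807 without), and the lower Nrp2, at -0.51 (limma adjusted p = 0.00378 with the block, 0.0945 without). Nrp1 and Nrp2 are named after their values were seen. Kdr, with a mean signal of 5.81, and Nrp1, with a highest value of 5.45, were dimmer than the dimmer Higd1a probe set (mean 5.98). Among 15 genes of mTORC1 control 0 were called by limma without the block. With it 4 were lower (26.7%) and 1 higher (6.67%), against 9.54% and 7.87% of all genes. At an unadjusted p under 0.05, 5 of the 15 were lower and 1 higher, against 2602 and 2283 of all 19938 genes. The smallest p-values there were those of Sesn3, at 0.25 ± 0.07 (limma adjusted p = 0.0749), and Tbc1d7, at -0.29 ± 0.09 (limma adjusted p = 0.0812).

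The profiles nearest to the mean of the 10 genes over the 6 arrays, by Euclidean distance after centring each gene, were those of Pgm2, Matn3, Dusp19, Bcl10 and Slc37a4. Pgm2 carries the name of a phosphoglucomutase, and Slc37a4 encodes the transporter of glucose phosphate into the endoplasmic reticulum. Their distances were 0.06 to 0.10 log2 units, and their changes were -0.42, -0.52, -0.50, -0.42 and -0.40. The likeness rests on 6 arrays and on the group difference as well as the spread within groups, and is a description of these arrays.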

How the data were processed

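RNA from 3 untreated and 3 tamoxifen samples was labelled with biotin and hybridised to Affymetrix arrays, 1 sample per array. The deposited values are log2 intensities made by the authors with Affymetrix Expression Console 1.2, running RMA, as the submitters' processing notes state. The scale was read from the values, which run from 3.18 to 14.6. For the array annotation, a genome build is not given in the sources used here. Of 35556 probe sets, 21789 had 1 gene symbol in the platform annotation, and the brightest probe set of each gene gave 19938 genes. The fit used limma 3.58.1 in R 4.3.3 (lmFit, eBayes, two-sided, Benjamini-Hochberg over all genes), with no filter on dim genes, and was tested on simulated data. Dimmer probe sets come from a fit to all 21789 probe sets.

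The genes and lists were chosen with earlier results of these data known. Of 161 pathway genes 149 were measured. Besides the 10 genes, Dicer1 and all paralogues, the text names the 2 called genes per direction with the largest change in each pathway list (where none was called, the 2 with the smallest p) and the 5 nearest profiles. Genes outside that rule are said to be so or are cell type markers. Same-numbered arrays deviated together from their group means (correlations of 0.356, 0.345 and 0.389 across genes), so the numbers were taken to pair the samples, and a blocked fit stands beside the unblocked one. With 3 arrays a group, precision is limited by their number.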

Additional observations from a re-analysis of the deposited data

How the results depend on the processing

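The median change of the 10 genes stayed negative in every alternative run, from -0.55 to -0.34, and no gene of the 10 was called higher in any. With the replicate block the counts were 3472 genes in all, 7 of the 10 lower, and 35 lower and 17 higher among pathway genes. Array weights gave 2511 genes and 18 lower and 11 higher pathway genes, a trended robust prior gave 11 lower pathway genes, and an adjusted p under 0.01 gave 276 genes with 1 lower and 3 higher pathway genes. Without 1 array the counts ran from 355 genes (without tamoxifen array 2) to 1580 (without tamoxifen array 1), from 2 to 4 of the 10 genes lower, from 1 to 10 pathway genes lower and from 3 to 6 higher; the largest counts of lower genes came without tamoxifen array 1, and fewer samples entered each fit. Higd1a left the test without the dimmest 40% of genes, and its dimmer probe set, an alternative chosen after the data were seen as was cyclic loess, gave -0.19. No sign of the 10 changes turned under the other scalings and summaries; without untreated array 1, Egln3 turned to 0.04. Dicer1 was called in every fit. RMA carries no detection call, so signal over background could not be judged.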
